A study of Mus musculus with 5 samples.

Results

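The transcripts of 9 chemokine receptors, Ccr1, Ccr2, Ccr4, Ccr6, Ccr8, Ccr9, Cxcr3, Cxcr4 and Cxcr6, were followed through 5 single-cell RNA-sequencing libraries of lung type 2 innate lymphoid cells (ILC2s). They were taken by symbol, and each was found in all 5 libraries among the 27726 genes listed. Cells were kept where they held 200 or more genes and under 5% mitochondrial (mt-) counts, which left 16530 cells. Levels were read in the 15008 of them with at least 1 unique molecular identifier (UMI, a tag that counts each captured RNA molecule once) of Gata3, the transcription factor that ILC2s depend on, or of Il1rl1, which encodes the IL-33 receptor ST2. These are called gated cells here. All libraries came from lungs of wild type C57BL/6 mice, female and a few weeks old per the study's methods, with 5 animals pooled into each sample. Cells were sorted as Lin- ST2+ CD127+ Thy1.2+ CD45+. The naïve library held freshly isolated, non-activated ILC2s from mice without tumour. The ta-non-activated libraries, 1 from week 2 and 1 from week 3, held freshly isolated ILC2s from mice that carried a TC1 tumour under the skin of the flank, so the lung was not the site of the tumour. The ta-activated libraries, again 1 from each week, held ILC2s of tumour-carrying mice that had been cultured for a week with IL-33 and TSLP, and with IL-2 per the study's methods, before sequencing. The naïve group thus had 1 library and the others 2, and within a week each treatment had 1.

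Chemokine receptors are receptors that span the membrane repeatedly, couple to inhibitory G proteins and steer cells along gradients of chemokines. Receptor transcripts of a lymphocyte commonly follow its lineage and its recent activation. Lung ILC2s are known to carry Ccr2, Ccr4, Ccr8 and Cxcr6, Cxcr4 holds immature lymphoid cells near sources of Cxcl12, Ccr6 marks cells of the type 17 programme, Cxcr3 marks those of the type 1 programme, and Ccr9 is a receptor of thymocytes and of cells that home to the gut.

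Some properties of the libraries touch every receptor below. In the week 3 ta-non-activated library, 854 of 1601 kept cells fell into 4 clusters that carried the thymocyte genes Dntt and Rag1 or Ptcra, although the sort aimed at ILC2s. These cells, called thymocyte-like here, made up 313 of its 902 gated cells and 64.0% of the gated UMIs, so that library is given with and without them. The class was set by a rule made after the clusters were seen, and only 1 of its 4 clusters had thymocyte genes among its 10 leading genes. A further cluster was led by genes of dividing cells, and another by Cpa3 and Tcrg-C1, with Nkg7 among its leading genes, next to Dntt at 1627 CPM (a gene's UMIs in the summed cells, scaled to 1000000 UMIs in all). The ta-non-activated library of week 2, labelled as freshly isolated, stood with the cultured ones in its general profile, and why was not tested. Across 7187 genes its Pearson r of log2(CPM + 1) was 0.851 with the week 2 ta-activated library, 0.743 with the week 3 ta-non-activated one and 0.511 with the naïve one, as a description across genes of shared libraries. After each cell was thinned to 2000 UMIs, Il13, the ILC2 cytokine, was seen in 89.2% of its gated cells, against 4.73% of the naïve, 4.97% of the week 3 ta-non-activated, 74.8% of the week 2 ta-activated and 85.0% of the week 3 ta-activated gated cells. Il1rl1 stood at 847 CPM in naïve gated cells, at 57.0 CPM in the week 2 and 428 CPM in the week 3 ta-non-activated cells outside the thymocyte-like clusters, and at 48.1 and 121 CPM in the cultured ones, and all 13 ILC2 markers were detected in each library. Kept cells held a median of 4517 UMIs in the naïve library and of 4396 to 16090 in the others. Pairs of libraries shared 1 to 8 cell barcodes.

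The naïve files were written by another version of the read counter Cell Ranger than the rest (6.0.0 against 3.0.2, per the file headers), which cannot be told apart from the group, and the naïve library held more of the transcripts of genes with long introns. With genes put into 4 equal bins by intron length, in the shortest bin, up to 7267 bases, the median log2 ratio of (CPM + 1) in the week 2 ta-non-activated over the naïve library was 0.89, and in the longest bin it was -2.06. For the week 3 ta-non-activated library outside the thymocyte-like clusters these medians were 0.41 and -1.53. Of the receptors, Ccr1, Ccr2, Ccr8, Cxcr3, Cxcr4 and Cxcr6 have 1004 to 4848 intron bases and lie in the shortest bin, Ccr4 has 11508 and Ccr6 has 18779, and Ccr9 has 95632 and lies in the longest. These medians describe many genes at once, and whether introns or the version bear on a single receptor was not tested.

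Of the receptor genes, 6 lie on mouse chromosome 9 (GRCm38, GENCODE M21). Ccr4 is at chr9:114490316-114504916 and Ccr8 at chr9:120092114-120094906. Ccr9 (chr9:123678439-123784330), Cxcr6 (chr9:123806475-123811760), Ccr1 (chr9:123962124-123968692) and Ccr2 (chr9:124101950-124113557) follow one another in the chemokine receptor cluster of that chromosome. Cxcr4 is at chr1:128588199-128592293, Ccr6 at chr17:8236043-8257141 and Cxcr3 at chrX:101731535-101734269. Ccr9 overlaps Lztfl1 and Slc6a20a on the opposite strand and Gm17200 on its own, and Cxcr6 lies inside Fyco1, which runs the other way. Whether strand was used in counting was not given in the sources used here, so the values of those genes carry that doubt. Lztfl1 was at 107, 29.1, 127, 18.3 and 22.8 CPM in the naïve, week 2 ta-non-activated, week 3 ta-non-activated without thymocyte-like, week 2 ta-activated and week 3 ta-activated gated cells, while Ccr9 was at 17.3, 0.244, 10.6, 0.018 and 0.146 CPM. Both genes were thus higher in the naïve and week 3 ta-non-activated cells than in the other 3 sets, though Lztfl1 stayed at 18.3 CPM or more where Ccr9 was nearly absent. In thymocyte-like cells, where Ccr9 was highest, Lztfl1 was at 47.2 CPM, below its level in the naïve and those week 3 cells. Fyco1 was at 87.9, 11.3, 39.6, 20.2 and 21.8 CPM in the same order, and Cxcr6 did not follow it.

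The promoters of 3 receptors on which the comparisons turn are shown because their transcripts parted. Ccr8 and Cxcr4 were low together in the week 2 ta-non-activated and both cultured libraries, while Cxcr6, and Ccr2 with it, stayed high in the cultured ones. The sequences are the 250 bases before the RefSeq transcription start (GRCm38.p6), from 5′ to 3′ on the strand of the gene, with matches of the searched motifs in capitals (here all as the reverse complement of the letters named after them), and lie at chr9:120091883-120092132 (+), chr1:128592300-128592549 (-) and chr9:123806227-123806476 (+).
Ccr8: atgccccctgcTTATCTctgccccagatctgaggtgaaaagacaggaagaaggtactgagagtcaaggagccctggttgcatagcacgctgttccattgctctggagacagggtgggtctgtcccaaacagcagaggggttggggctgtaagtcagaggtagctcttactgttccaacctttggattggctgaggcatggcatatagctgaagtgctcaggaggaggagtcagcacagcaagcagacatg
Cxcr4: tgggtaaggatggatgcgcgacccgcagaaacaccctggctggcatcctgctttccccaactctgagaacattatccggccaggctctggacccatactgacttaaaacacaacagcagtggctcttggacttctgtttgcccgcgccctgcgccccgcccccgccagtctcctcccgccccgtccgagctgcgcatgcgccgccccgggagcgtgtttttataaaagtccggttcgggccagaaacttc
Cxcr6: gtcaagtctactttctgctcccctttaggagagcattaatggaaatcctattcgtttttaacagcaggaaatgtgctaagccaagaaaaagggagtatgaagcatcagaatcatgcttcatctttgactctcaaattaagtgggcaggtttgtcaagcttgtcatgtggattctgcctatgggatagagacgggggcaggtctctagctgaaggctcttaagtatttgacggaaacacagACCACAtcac
Searched on both strands were the GATA motifs AGATAA and TGATAA, the AP-1 motif TGACTCA, the CRE motif TGACGTCA and the RUNX motif TGTGGT. Both GATA motifs share all but their first letter, and no motif holds another. The motif AGATAA was found 239 bases before the start of Ccr8, 97 bases before that of Ccr2 and 70 bases before 1 of the 2 starts of Ccr6, and 9.99% of all 32851 mouse promoters of that length hold it. TGTGGT lay 10 bases before the start of Cxcr6, 58 before that of Ccr1 and 110 before that of Cxcr3, and 14.0% of all promoters hold it. TGACTCA lay 143 bases before the start of Ccr4 and is held by 4.46% of all promoters. TGATAA, held by 7.94% of all promoters, and TGACGTCA, held by 1.55%, were in none of the 9. These letters were not in the 250 bases of Cxcr4 or Ccr9, which says nothing of the factors themselves. Some RefSeq starts lie inside the GENCODE gene. The matches of Ccr2, Ccr4, Ccr6 and Cxcr3 therefore lie within the annotated gene, as does the whole window of Ccr9. Such windows may hold transcribed bases.

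**Figure D1:**
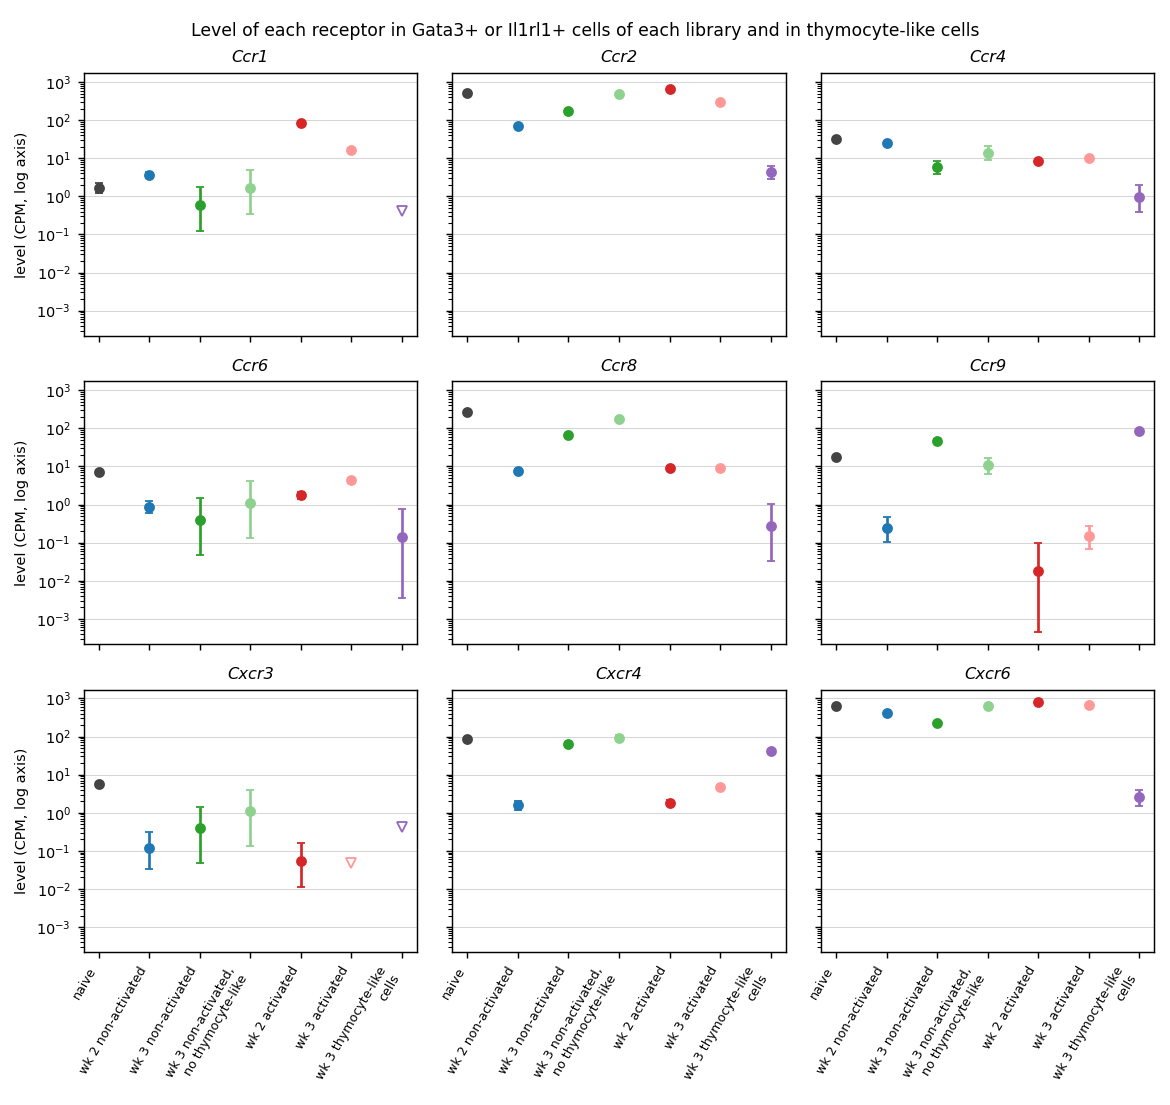
Level of each receptor in CPM on a log axis (points, with exact Poisson 95% intervals of the counts) in the gated cells of each library, in the week 3 ta-non-activated gated cells without thymocyte-like cells, and in the thymocyte-like cells. Open triangles stand at the level of 3 UMIs for a receptor with no UMI. Ccr8, Cxcr4 and Ccr9 are low in the week 2 ta-non-activated and both ta-activated libraries, Ccr1 is high in the ta-activated ones, and Ccr9 leads in thymocyte-like cells.

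Ccr2 and Ccr1 are receptors of inflammatory chemokines. Ccr2, the receptor of Ccl2 that brings monocytes into tissue, was at 514 CPM in naïve gated cells (95% Poisson interval 506 to 522, which covers counting error only, as all intervals here do). In ta-non-activated cells it was at 70.4 CPM (67.5 to 73.3) at week 2 and at 175 CPM at week 3, or 473 CPM (442 to 506) with the thymocyte-like cells left out. In the ta-activated libraries it was at 669 CPM at week 2 and 293 CPM at week 3. The week 2 ta-non-activated library was thus the low one, and the naïve and week 3 ta-non-activated cells were close to each other, with a ratio of 0.921 (0.858 to 0.987). In sums over cells, fewer positive cells and less RNA per cell cannot be told apart.

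Ccr1, a receptor of Ccl3 and Ccl5, was at 1.69 CPM in naïve, 3.72 CPM in week 2 and 0.602 CPM (3 UMIs) in week 3 ta-non-activated gated cells, or 1.68 CPM there without thymocyte-like cells. After culture it was at 82.5 CPM (80.2 to 85.0) at week 2 and at 17.01 CPM (16.0 to 18.1) at week 3. Both ta-activated libraries lay above all 3 fresh ones. The week 2 ta-activated library also held Mcpt8, a basophil protease, at 124 CPM against 1.07 CPM at week 3, and its 10 mast cell or basophil markers summed to 124.5 CPM against 0.0305 CPM in ta-non-activated cells of that week. Ccr1 was at 80.9 CPM in the 2358 gated cells without any of them and at 88.6 CPM in the 354 with 1 or more, a split chosen after the values were seen. Of the 10 markers, 5 had no UMI in that library's gated cells, among them Ms4a2 and Fcer1a, the genes of the IgE receptor, and Cpa3 was at 0.0718 CPM. The sum, and so the split, rested nearly wholly on Mcpt8. Whether mast cells or basophils bear on the level of Ccr1 was not tested.

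Ccr4 and Ccr8 are the receptors most often tied to type 2 lymphocytes, Ccr4 for Ccl17 and Ccl22 and Ccr8 for Ccl1. Ccr4 was at 32.9 CPM in naïve and 25.3 CPM in week 2 ta-non-activated gated cells, at 5.82 CPM in those of week 3 (14.0 CPM, 9.03 to 20.6, without thymocyte-like cells), and at 8.46 and 10.0 CPM in the ta-activated ones. Its intervals in the week 3 libraries overlapped. Ccr8 spanned a far wider range. It was at 272 CPM (266 to 278) in naïve cells, at 65.5 CPM in week 3 ta-non-activated gated cells and 181 CPM (162 to 202) without the thymocyte-like ones, but at 7.68 CPM in ta-non-activated cells of week 2 and at 9.23 and 9.03 CPM in the ta-activated ones. The last 3 lay within 6.76 and 10.1 CPM with their intervals, and the naïve level was 35.4-fold (31.2 to 40.3) that of the week 2 ta-non-activated library.

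Cxcr6 and Cxcr4 are receptors of retention. Cxcr6, the receptor of the membrane-bound Cxcl16 that is carried by tissue-resident lymphocytes, was at 638 CPM in naïve cells, 410.4 CPM in week 2 and 629 CPM (593 to 667) in week 3 ta-non-activated cells outside the thymocyte-like clusters (229 CPM with them), and at 823 and 663 CPM after culture. Its whole range was 2.01-fold between its lowest and highest library. Cxcr4, the receptor of Cxcl12, was at 86.9 CPM in naïve and 61.9 CPM in week 3 ta-non-activated gated cells, and at 91.6 CPM (78.1 to 107) there without thymocyte-like cells. At week 2 the ta-non-activated library had it at 1.58 CPM, and the ta-activated libraries at 1.81 and 4.78 CPM. Cxcr4 therefore split the libraries as Ccr8 did, with naïve and week 3 ta-non-activated cells on 1 side and the other 3 libraries on the other.

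The other receptors were scarce in gated cells. Ccr6 was at 7.01 CPM in naïve cells and between 0.402 and 4.402 CPM elsewhere. Cxcr3 was at 5.59 CPM in naïve cells, at 0.122 CPM (4 UMIs) and 0.402 CPM (2 UMIs) in the ta-non-activated libraries, at 0.0539 CPM (3 UMIs) in the week 2 ta-activated one and without a UMI among the 61568867 of the week 3 ta-activated one, which allows up to 0.0487 CPM at 3 UMIs. Ccr9 was at 17.3 CPM in naïve and 47.4 CPM in week 3 ta-non-activated gated cells, and at 10.6 CPM (6.39 to 16.6, 19 UMIs) in the latter without thymocyte-like cells. In ta-non-activated cells of week 2 it was at 0.244 CPM (8 UMIs), and in the ta-activated libraries at 0.018 CPM (1 UMI) and 0.146 CPM (9 UMIs). Most of the Ccr9 signal of the week 3 ta-non-activated gated cells therefore sat in its thymocyte-like cells.

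The tumour libraries were set against the naïve one, the comparison the study was built on, by ratio only, since the naïve group has 1 library, and the difference was not tested. Genes with 20 CPM or more in either library were counted where they differed by 2-fold or more on log2(CPM + 1), the scale of the medians, and each printed fold is the plain ratio of CPM. Week 2 ta-non-activated cells had 3 of 5 such receptors lower, Ccr2 by 7.31-fold (6.99 to 7.64), Ccr8 by 35.4-fold and Cxcr4 by 54.8-fold (41.7 to 73.6), where 34.9% of all 6566 genes were lower. None was higher, where 24.3% of all genes were. The median over the 5 receptors was -2.85, against -0.19 over all genes. In week 3 ta-non-activated cells outside the thymocyte-like clusters, only Ccr4 of 5 was lower, by 2.36-fold (1.59 to 3.66), where 27.9% of 6029 genes were lower, and none was higher, where 2.94% were. There the median was -0.12 for the receptors and -0.27 for all genes. With 1 of 5 lower at week 3 and 3 of 5 at week 2, the counts are too small to set the receptors apart from all genes. Ccr8 was 1.503-fold (1.34 to 1.68) lower at week 3, and Cxcr4 differed from naïve by a ratio of 1.05 (0.895 to 1.24), whose interval spans equality.

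**Figure D2:**
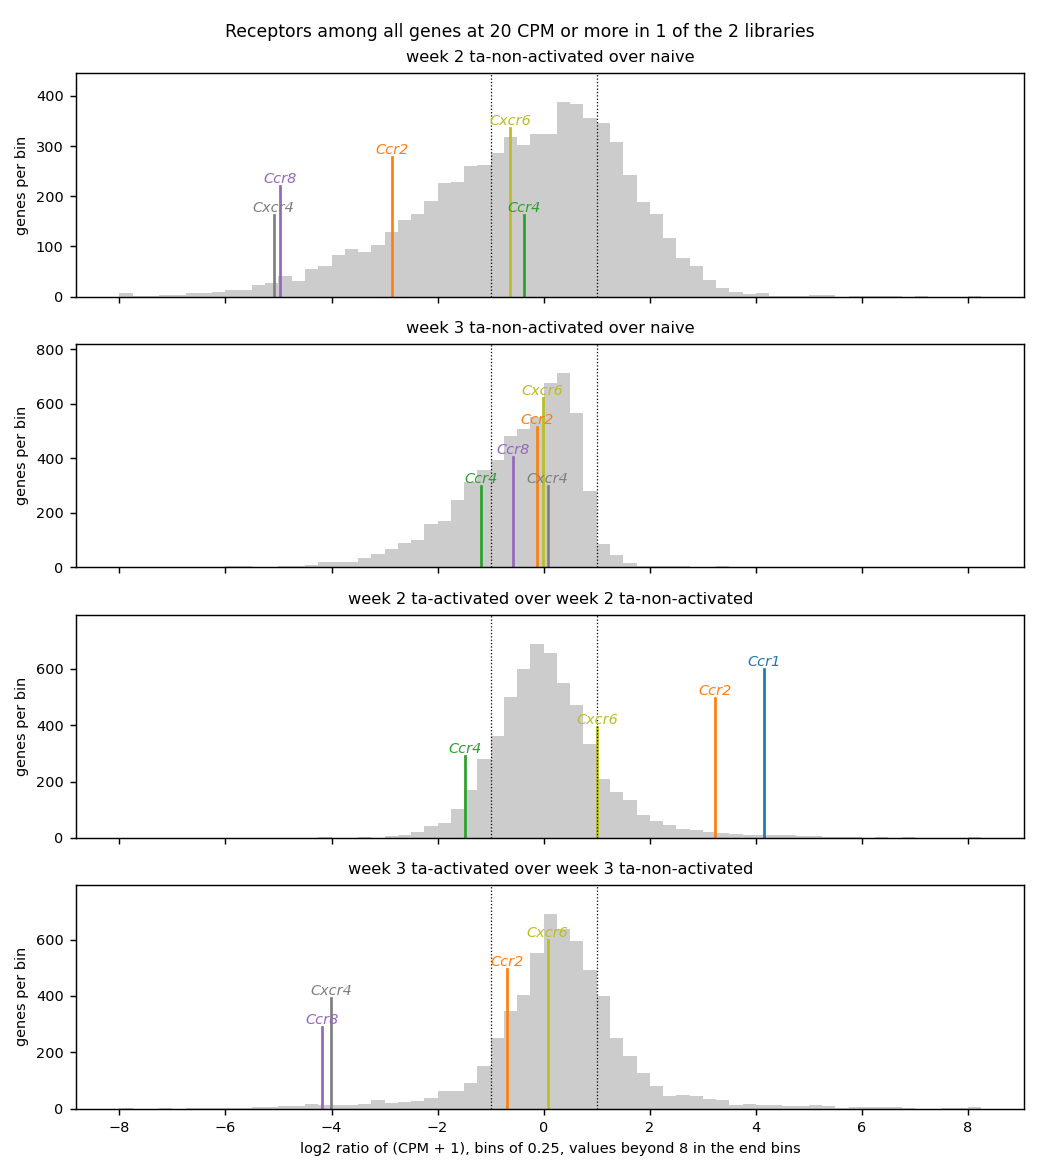
Distribution of the log2 ratio of (CPM + 1) over all genes with 20 CPM or more in either library (grey bars, genes per bin of 0.25) and the receptors that passed that limit (coloured lines), for gated cells without thymocyte-like cells. Dotted lines mark 2-fold. Ccr8 and Cxcr4 lie at -4.98 and -5.09 for week 2 ta-non-activated over naïve and at -4.18 and -4.003 for week 3 ta-activated over ta-non-activated, and Ccr1 lies at 4.15 for week 2 ta-activated over ta-non-activated.

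Culture with IL-33 and TSLP was compared with fresh isolation across both weeks, the contrast that has 2 libraries a side. On UMI counts summed over the gated cells of each library, edgeR's quasi-likelihood test called none of 12569 genes at an adjusted p (Benjamini-Hochberg) under 0.05, so the background is 0% in either direction, and none of the 8 receptors it tested. Cxcr3 fell under its filter on low counts. At an unadjusted p under 0.05 there were 4 of the 8 receptors, where 17.7% of all genes were. Ccr1 had a log2 fold change of 4.28 (standard error 1.20, edgeR adjusted p = 0.220), Ccr2 of 1.97 (0.64, adjusted p = 0.244), Ccr6 of 2.02 (0.77, adjusted p = 0.279) and Ccr9 of -8.06 (2.65, adjusted p = 0.245). The other 4, Ccr4, Ccr8, Cxcr4 and Cxcr6, had log2 fold changes of -0.89, -1.97, -3.23 and 1.14, with edgeR adjusted p of 0.571, 0.356, 0.364 and 0.302. The median over the 8 receptors was 0.12, against 0.04 over all genes. DESeq2 on the same sums called 1042 of 12434 genes, with Ccr1 (adjusted p = 0.00205) and Ccr2 (0.0421) higher and Ccr9 (9.27e-05) lower after culture. Without thymocyte-like cells the edgeR log2 fold change was 0.68 (0.96) for Ccr2 and 0.33 for Cxcr6, still 3.86 (0.98) for Ccr1, and -3.51 for Ccr8, -3.95 for Cxcr4 and -5.94 for Ccr9, none of them called. Ccr4 was at -1.33 and Ccr6 at 1.47 in that fit, also not called. The receptors at an unadjusted p under 0.05 were then Ccr1, Ccr4 and Ccr9, 3 of 8, where 1524 of 12507 genes were. Their median over all 8 turned to -0.50, against -0.02 over all genes, so these summaries depend on the thymocyte-like cells.

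The fold changes depended on which ta-non-activated libraries entered the fit. Without that of week 2, edgeR gave log2 fold changes of -2.78 for Ccr8, -9.03 for Ccr9 and -4.18 for Cxcr4. That fit kept the thymocyte-like cells, which held 64.0% of the gated UMIs of the only fresh library left. The value of Ccr9 therefore includes those cells, where it was highest. Without the week 3 ta-non-activated library, Ccr4 was at -1.71. In these fits the lone library of an arm is assumed to vary like the others. Within week 2, where culture and fresh isolation have 1 library each, Ccr1 was 22.2-fold (18.6 to 26.8) and Ccr2 9.50-fold (9.11 to 9.92) higher after culture, Cxcr6 2.01-fold higher and Ccr4 2.996-fold (2.67 to 3.36) lower. That is 3 of 4 receptors at 20 CPM higher, where 15.3% of 5733 genes were, and 1 lower, where 12.1% were. Within week 3, with thymocyte-like cells left out, Ccr8 was 20.03-fold (17.4 to 23.0) and Cxcr4 19.2-fold (15.7 to 23.3) lower after culture, 2 of 4 receptors, where 10.2% of 5947 genes were lower, and none was higher, where 23.1% were. Ccr1 went from 3 UMIs to 1047 UMIs there, a ratio of 10.2 (3.46 to 49.3), while Cxcr6 had a ratio of 1.05 (0.993 to 1.12). Ccr2 went in opposite directions in the 2 weeks, and Ccr8 and Cxcr4 were low in the week 2 fresh library already, at 7.68 and 1.58 CPM. Dividing cells moved with culture as well. Their 10 markers summed to 1998 and 1583 CPM in the ta-activated libraries and to 669 and 223 CPM in the ta-non-activated ones, with thymocyte-like cells left out (2574 CPM at week 3 with them). In kept cells with Mki67 or Top2a UMIs of the cultured libraries, Ccr1 was at 84.2 CPM at week 2 and 18.1 CPM at week 3, next to 82.5 and 17.01 CPM in all gated cells. These cells held 39268299 of the 57352180 kept UMIs at week 2 and 42207385 of 61830293 at week 3. They were 1400 of 2895 kept cells at week 2 and 2056 of 3822 at week 3. The 2 sets thus shared most of their UMIs, which draws their levels together without forcing them to be equal. Whether Ccr1 goes with division was not tested.

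At week 3, thymocyte-like cells and the other gated ta-non-activated cells differed in the level of most receptors. In thymocyte-like cells Ccr9 was at 86.4 CPM (79.8 to 93.5), 8.15-fold (5.17 to 13.6) above the 10.6 CPM of the other gated cells, and Cxcr4 was at 42.5 CPM (37.8 to 47.5), 2.16-fold (1.77 to 2.62) below them. Ccr2 was at 4.33 CPM there, Cxcr6 at 2.51 CPM, Ccr4 at 0.978 CPM and Ccr8 at 0.279 CPM (2 UMIs), while Ccr1 and Cxcr3 had no UMI among 7160641, which allows up to 0.419 CPM at 3 UMIs. Of the 5 receptors at 20 CPM, 1 was 2-fold or more higher, where 26.1% of 6044 genes were, and 4 were lower, where 15.1% were. The receptors played no part in the clustering, which ran on variable genes without any chemokine receptor. Within the class, Ccr9 varied between clusters. It was at 145 CPM in the 442 cells led by Ptcra and Rag1 and at 171 CPM in the 100 cells led by Plaur and Gpr20, but at 64.7 CPM in the 138 cells led by Cpa3 and at 28.8 CPM (23.0 to 35.6) in the 174 cells led by genes of division. Cxcr4 was between 38.7 and 47.9 CPM in all 4. Cells chosen by UMIs of at least 3 of 9 T-cell genes and none of Il1rl1, in place of clusters, gave 84.5 CPM of Ccr9 and 45.2 CPM of Cxcr4 but 31.5 CPM of Cxcr6.

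Outside the thymocyte-like class, the week 3 ta-non-activated cells fell mainly into clusters of 361 and 335 cells, with Gata3 at 461 and 713 CPM and Il1rl1 at 330.3 and 409 CPM. The cluster led by Cxcl2, Ccl1, Areg and Il5 had more Ccr8 (230.3 CPM, 203 to 260.2, against 97.3 CPM, 78.3 to 119), more Cxcr4 (139 against 19.2 CPM) and more Cxcr6 (799.8 CPM, 748 to 854, against 384 CPM) than the cluster led by S100a6, Inpp4b and Fgl2, and less Ccr2 (414 against 548 CPM). These are values of 1 library, given as a description. The small clusters differed again. The 31 cells led by Il17a, Cd40lg and Trac had Ccr6 at 190 CPM (118 to 290, 21 UMIs) and Cxcr6 at 1330.1 CPM, and the 20 cells led by Ccl5 and Klrd1 had 4 UMIs of Cxcr3 and 8 of Ccr9.

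**Figure D3:**
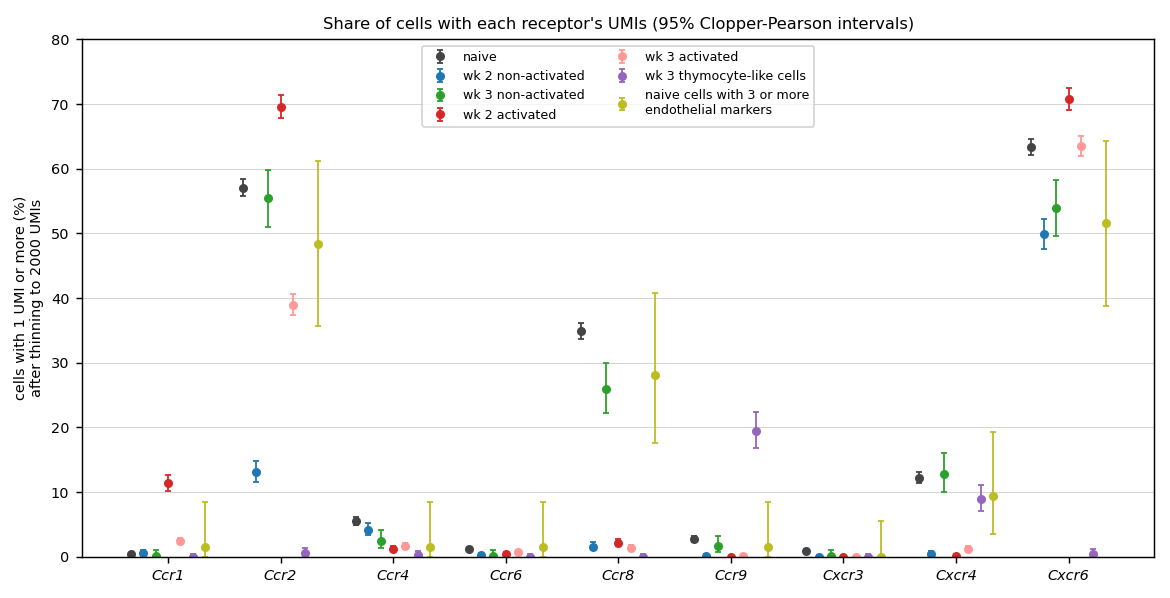
Share of cells with 1 UMI or more of each receptor after every cell was thinned to 2000 UMIs (points, with Clopper-Pearson 95% intervals), in gated cells outside the thymocyte-like clusters of each library, in thymocyte-like cells, and in naïve cells with UMIs of 3 or more endothelial markers. Ccr8 and Cxcr4 are seen in 34.8% and 12.2% of naïve and 26.0% and 12.8% of week 3 ta-non-activated cells and in 2.16% or fewer of the gated cells of the other 3 libraries.

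Shares of cells were compared after each cell was thinned to 2000 UMIs, with cells below that left out, because depth per cell differed. Ccr2 was seen in 57.1% (Clopper-Pearson 95% interval 55.8 to 58.4) of 5703 naïve gated cells, 13.1% (11.6 to 14.8) of 1766 week 2 and 55.5% (51.1 to 59.8) of 523 week 3 ta-non-activated cells, and 69.6% and 39.0% of the ta-activated ones. Unthinned, these shares were 79.1, 39.4, 63.8, 93.1 and 67.8%. Cxcr6 was seen in 63.3, 49.9, 53.9, 70.8 and 63.5% of cells in the same order. Ccr8 was seen in 34.8, 1.59, 26.0, 2.16 and 1.39% and Cxcr4 in 12.2, 0.396, 12.8, 0.186 and 1.22%. Ccr1 was seen in 11.4% (10.2 to 12.7) of week 2 and 2.37% (1.90 to 2.91) of week 3 ta-activated cells and in 0.566% or fewer elsewhere, so its higher sums came with more positive cells. Thymocyte-like cells, which should lack the ILC2 receptors, served as the background in their library. Before thinning, with cells under 2000 UMIs included, their median was 6323 UMIs against 2876 in the other gated cells. After it, the thymocyte-like cells showed Ccr2 in 0.594%, Cxcr6 in 0.475% and Ccr8 in 0 of 842 (2 UMIs before thinning), which allows up to 0.356% at 3 cells, and Ccr9 in 19.5% and Cxcr4 in 8.91%. The week 2 and the cultured libraries had no such reference, so that free RNA in their shares was not measured, and the naïve library had no clean one. Its 75 cells with 3 or more endothelial markers had a median of 4850 UMIs before thinning, against 4552 in all its gated cells. The 64 of them with 2000 UMIs or more held Ccr2 in 48.4% (35.8 to 61.3), Cxcr6 in 51.6%, Ccr8 in 28.1% and Cxcr4 in 9.38%, but also Gata3 in 48.4% and Il1rl1 in 57.8%. The naïve shares are within the intervals of those cells and are given with that limit. In naïve cells with Il23r UMIs, in contrast, Ccr8 was seen in 7.71% (5.23 to 10.9).

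Several receptors were often read in the same cell. At 2000 UMIs, 2 or more of the 9 were seen in 37.0% (exactly 2), 18.8% (3) and 3.74% (4) of naïve gated cells, and in 33.5, 12.6 and 2.29% of week 3 ta-non-activated ones outside the thymocyte-like clusters. In the week 2 ta-non-activated library 41.1% of cells showed none and 48.1% showed 1, against 8.82% and 31.3% in the naïve one. Pairs of receptors went together weakly in some cases and apart in others. Among naïve cells with Ccr8, 59.7% had Ccr2, against 55.7% of those without, and among week 3 ta-activated cells with Cxcr6, 43.8% had Ccr2, against 30.5% of those without. Among cells with Cxcr4, in contrast, Ccr2 was seen in 52.5% of naïve and 41.8% of week 3 ta-non-activated ones, against 57.7% and 57.5% of those without Cxcr4. Such shares rest on sparse counts within 1 library and are descriptions only.

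Gated cells were also split by whether they held any Il13 UMI. Il13 was at 59.05 CPM in naïve gated cells and at 8926 CPM in week 2 ta-non-activated ones. A naïve cell with an Il13 UMI thus need not hold Il13 at the level of that week 2 library. For that reason the split cannot compare like cells between libraries. In the naïve library, the 472 gated cells with Il13 UMIs had Ccr8 at 259 CPM (241 to 277), Cxcr4 at 84.1 CPM and Ccr2 at 472 CPM, and the 5414 without had 273, 87.2 and 519 CPM. In week 3 ta-non-activated cells outside the thymocyte-like clusters, the 35 cells with Il13 had Ccr8 at 278 CPM (195 to 386) and Cxcr4 at 108 CPM, against 173 and 90.3 CPM in the 554 without. In the week 2 ta-non-activated library, in turn, the 74 cells without Il13 had Ccr8 at 7.37 CPM (2.39 to 17.2), close to the 7.68 CPM of those with it, Cxcr4 at 2.95 CPM (2 UMIs), against 1.56 CPM, and more Ccr2 (152 CPM, 124 to 184, against 68.6 CPM). Low Ccr8 and Cxcr4 were thus found on both sides of the split in that library, and high ones on both sides in the naïve and week 3 ta-non-activated libraries. Whether Il13, or the state of the cells that hold it, bears on these levels was not tested. Ccr1 did part by Il13 in the ta-activated libraries. At week 2 Ccr1 was at 84.4 CPM with Il13 and at 25.8 CPM (18.9 to 34.4) without. At week 3 it was at 17.3 CPM with Il13 and at 1.01 CPM (1 UMI) without. Whether the cells without Il13 differed in depth or type was not tested. This split was chosen after the values were seen.

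**Figure D4:**
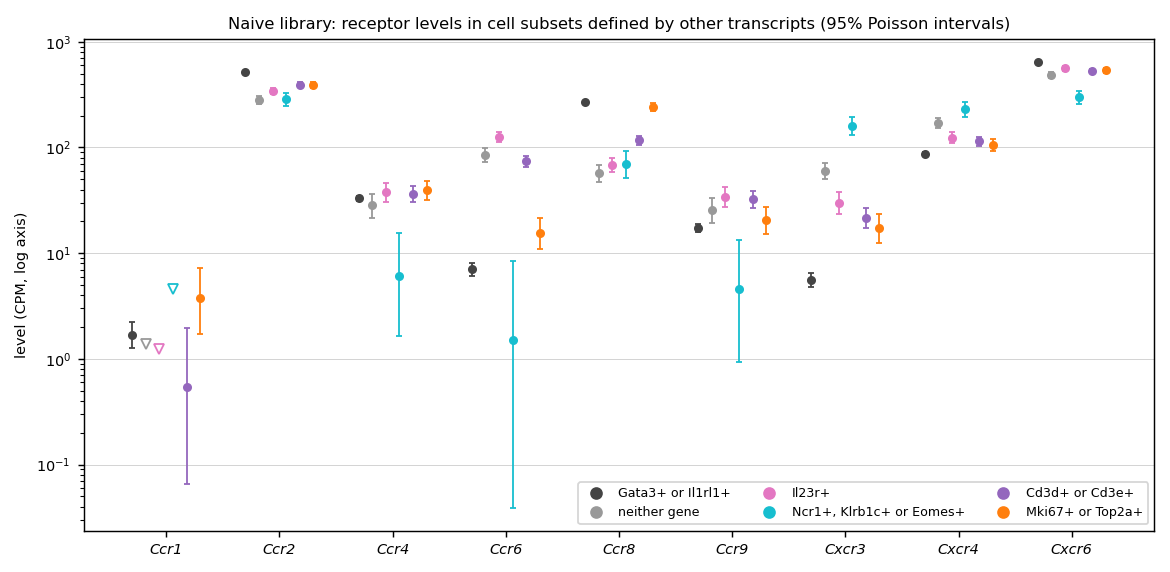
Levels of the receptors in CPM on a log axis (points, with exact Poisson 95% intervals) in the gated cells of the naïve library and in its subsets defined by UMIs of other genes. Open triangles stand at the level of 3 UMIs where no UMI was found. Ccr6 is highest in Il23r+ cells, at 126 CPM, and Cxcr3 and Cxcr4 are highest in cells with Ncr1, Klrb1c or Eomes, at 161 and 231 CPM.

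The scarce receptors were concentrated in subsets of the naïve library that were defined by genes other than receptors. Among kept cells, the 389 with Il23r, which encodes the IL-23 receptor of type 17 lymphocytes, had Ccr6 at 126 CPM (112 to 140), against 7.01 CPM in gated cells. The 108 cells with Ncr1, Klrb1c or Eomes, genes of NK cells and ILC1s, had Cxcr3 at 161 CPM (132 to 195), against 5.59 CPM, and Cxcr4 at 231 CPM (196 to 271), against 86.9 CPM. Ccr8 went the other way, at 68.6 CPM in the first subset and 69.8 CPM in the second, against 272 CPM. In the 503 cells with neither Gata3 nor Il1rl1, Ccr6 was at 85.6 CPM, Cxcr3 at 60.5 CPM, Cxcr4 at 171 CPM and Ccr8 at 56.7 CPM, so both scarce receptors were higher outside the gate than inside it. Gated naïve cells without any UMI of Il23r, Ncr1, Klrb1c or Eomes, a split made after the values were seen, had Ccr6 at 2.14 CPM and Cxcr3 at 3.23 CPM. Dividing naïve cells, 316 with Mki67 or Top2a, had Ccr8 at 242 CPM and Ccr2 at 393 CPM. In the week 2 ta-activated library the 29 Il23r+ cells had Ccr6 at 63.3 CPM (42.7 to 90.4), against 1.74 CPM in its gated cells. In the week 3 ta-activated library Ccr9, at 0.146 CPM in gated cells, was at 138 CPM (96.4 to 191, 36 UMIs) in the 84 cells with neither gate gene, whose median was 1635 UMIs.

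Genes around the receptors were read from lists that were chosen with earlier results of these data known. Of 13 other chemokine receptors none reached 50 CPM in the gated cells of a library with thymocyte-like cells kept. Ccrl2 did reach it in week 3 ta-non-activated cells without them. Of the 6 tested none was called by edgeR, with 2 at an unadjusted p under 0.05 and a median log2 fold change of 0.49. These 2 were Ccr3 (4.003) and Ccr10 (4.80), which were named, like Ccrl2, after their values were seen. Ccr10 was at 37.6 CPM in week 2 and 12.9 CPM in week 3 ta-activated gated cells and at 7.80 CPM or below elsewhere. Ccrl2, a receptor that binds ligands without signalling, was at 48.9 CPM in naïve and 97.7 CPM in week 3 ta-non-activated cells outside the thymocyte-like clusters, and at 0.701 to 19.8 CPM in the other 3 sets. Among 17 ligands of the 9 receptors, 16 were in the tables and 3 reached it. Ccl1, the ligand of Ccr8, was at 537 CPM in naïve, 17.1 CPM in week 2 and 719 CPM in week 3 ta-non-activated cells outside the thymocyte-like clusters, and at 14.6 and 76.6 CPM in the ta-activated ones, so it was low in the same 3 libraries as Ccr8. Ccl1 has 126665 intron bases, in the bin of long introns that was higher in the naïve library as a whole. Whether that bears on its level was not tested. Ccl5 was at 102, 47.8, 91.6, 45.1 and 154 CPM and Cxcl10, a ligand of Cxcr3, at 22.7, 43.5, 68.1, 47.4 and 427 CPM in the same order. No ligand passed edgeR's test after culture, and of the 9 tested none had an unadjusted p under 0.05. Their median log2 fold change was 0.33, against 0.04 over all genes.

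Of the 16 genes of receptor signalling, 13 reached 50 CPM, and all 16 were tested without a call by edgeR, 1 of them (Gng2) at an unadjusted p under 0.05, with a median log2 fold change of 0.21. That fit kept the thymocyte-like cells. With them left out, 0 of the 16 were at such a p and the median was 0.10. Gnai2, the inhibitory G protein subunit, was between 419 and 726 CPM in all libraries, Rac2, a small GTPase of migration, between 397 and 689 CPM, and Coro1a, an actin regulator, between 499 and 779 CPM. Gnai3, Gnb1, Gnb2, Gng2, Rap1b and Tln1 spanned 69.3 to 470 CPM, and Rasgrp2 stayed at 20.1 CPM or below outside the thymocyte-like cells, where it was at 90.1 CPM. Dock2 (911 against 103 to 207 CPM), Elmo1 (581 against 46.2 to 65.3 CPM) and Pik3r5 (53.5 against 6.90 to 25.4 CPM) were highest in the naïve library. Dock2 and Elmo1 have 545653 and 505178 intron bases, in the bin of long introns that was higher in that library as a whole. Of 14 genes of receptor desensitization in the tables, 7 reached 50 CPM, and all 14 were tested without a call by edgeR, 4 (Rgs1, Arrb1, Rgs14 and Grk5) at an unadjusted p under 0.05, with a median log2 fold change of 0.52. With thymocyte-like cells left out, only 1 of the 14 (Grk5) was at such a p, and the median was 0.27. Rgs2, which shortens G protein signals and has 1197 intron bases, stood out. It was at 1269 CPM in naïve and 1026 CPM in week 3 ta-non-activated cells outside the thymocyte-like clusters, at 1.34 CPM in week 2 ta-non-activated ones and at 8.84 and 9.13 CPM in the ta-activated ones, again the split of Ccr8 and Cxcr4. Rgs18 was at 88.7 and 101 CPM in the first 2 of these and at 8.85 to 39.8 CPM in the other 3. Rgs1 was at 442, 258, 823, 1216 and 838 CPM in the order used above, Grk2 at 63.5 to 118 CPM, Rgs10 at 38.2 to 140.4 CPM and Rgs19 at 26.5 to 60.04 CPM. Grk5 was at 51.6 CPM in naïve cells and at 2.53 to 8.20 CPM elsewhere, with 199165 intron bases.

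The genes whose pattern was most like each receptor were read from Pearson's r of log2(CPM + 1) over 6 points, the gated cells of the 5 libraries and the thymocyte-like cells, among 7513 other genes with 20 CPM or more at 1 point. With so few points high values are common, and the points share cells and libraries, so these are descriptions. Ccr8 ran closest with Podnl1 (r = 0.993), Rab21 and Camk2n1. Cxcr4 ran closest with Per1 (0.995), Gps2 and Dusp1, and 8 genes had an r over 0.99 with it. Per1 and Dusp1 are quickly induced genes, and Dusp1 was at 488 CPM in naïve, 419 CPM in week 3 ta-non-activated and 7.31 CPM in week 2 ta-non-activated gated cells. Ccr9 ran closest with Paip2b (0.999), Zfp868 and Hspa1a, a heat shock gene at 987 CPM in thymocyte-like cells, and 28 genes passed 0.99. Ccr2 ran closest with Areg (0.989), the ILC2 growth factor amphiregulin, then Samhd1 and Hba-a1. Cxcr6 ran closest with S100a4 (0.995), Ltb4r1, a leukotriene B4 receptor, and Flt3l. Ccr4 ran closest with Prkaca (0.985), Il27ra and Tnfrsf11a, and Ccr1 with 9330175E14Rik (0.998), Leprotl1 and Olfm1. Among the receptors themselves, Ccr2 and Cxcr6 had an r of 0.938 and Ccr9 and Cxcr4 of 0.912 over these points.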

How the data were processed

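Droplet 3' single-cell RNA-seq counts of 5 libraries (1 naïve, 2 ta-non-activated, 2 ta-activated, each from 5 pooled mice) were used as deposited. The deposited values are raw UMI counts per gene and cell that the authors made with Cell Ranger on GRCm38 (3.0.2 in the submitters' processing notes and 4 file headers, 6.0.0 in the header of the naïve files). Seurat 3 is also named in those notes. The receptors, gene lists and comparisons were chosen with earlier results of these data known.

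Cells with at least 200 genes and under 5% mt- counts were kept, and those with a UMI of Gata3 or Il1rl1 were gated. Kept libraries held 9394957 to 61830293 UMIs. The sort gated out doublets by pulse width, per the legend of the study's gating figure. That step comes before cells enter droplets and does not remove cells that share one. No doublet caller was run on the counts, so such pairs may remain. Counts were summed per library, since cells are not replicates, and levels are CPM with exact Poisson 95% intervals. Shares were read after thinning to 2000 UMIs, with Clopper-Pearson intervals. The week 3 ta-non-activated library was clustered with scanpy 1.11.5 (2000 variable genes without chemokine receptors, 30 components, 15 neighbours, Leiden resolution of 0.5, leidenalg 0.10.2). Clusters with Dntt at 500 CPM or more and Rag1 and Ptcra at 30 CPM or more together were called thymocyte-like. Culture was tested with edgeR 4.0.16 (quasi-likelihood, TMM, filterByExpr, limma 3.58.1, R 4.3.3) on gated sums of the 4 ta libraries, with DESeq2 1.42.0 as an alternative, after a check on simulated data. The spread of the simulated counts was set by hand and not taken from these libraries. That check therefore says nothing of the power of the test here. The standard errors printed for edgeR are approximate. Each is the absolute log2 fold change divided by the square root of the F statistic. Nothing in the labels says that a group's libraries came from separate experiments beyond their week, so p-values measure the spread between these libraries. Ratios with 1 library a side used log2(CPM + 1), genes at 20 CPM and a 2-fold limit, with no test. From the lists, genes at 50 CPM or more in gated cells of a library were named, and the 3 genes most like each receptor at 20 CPM were named. Promoters are from RefSeq (GRCm38.p6, all 9 receptors matched), gene positions from GENCODE M21, in which 27639 of 27726 genes were found.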

Additional observations from a re-analysis of the deposited data

Results flagged for a closer look

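In gated cells without thymocyte-like cells, the ratio of ta-activated over ta-non-activated cells lay on opposite sides of 1 in the 2 weeks for Ccr2 and Ccr8. Ccr2 had a ratio of 9.50 at week 2 and of 0.618 at week 3. Ccr8 had a ratio of 0.0499 at week 3 but of only 1.20 (1.03 to 1.40, counting error only) at week 2, from 7.68 to 9.23 CPM, so that its week 2 levels were close to each other. Each week has 1 library a side, so the difference between weeks was not tested. With thymocyte-like cells kept, Ccr2 went from 175 to 293 CPM at week 3, in the direction of week 2.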

How the results depend on the processing

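Across libraries, edgeR called 0 genes for culture in the reported fit, and also with a replicate block for the week, with all 5 libraries, all kept cells, cells with both gate genes, a mitochondrial limit of 10% or without thymocyte-like cells. DESeq2 called 1042 genes and edgeR without a filter on low genes 104. The replicate numbers mark a shared week only, and the deviations of same-numbered libraries did not go together (Pearson r of -0.033 over 12569 genes). That r kept the thymocyte-like cells, 64.0% of the gated UMIs of the week 3 ta-non-activated library. It therefore cannot show whether the week pairs the libraries. A replicate block together with leaving out thymocyte-like cells, an alternative chosen after seeing the data, called 116 genes, with Ccr1 at a log2 fold change of 3.89 and an edgeR adjusted p of 0.0431. With each library left out in turn the count ran from 0 to 1175. Without the ta-non-activated library of week 2, Ccr8 was at -2.78, Ccr9 at -9.03 and Cxcr4 at -4.18, while Ccr4 turned to 0.727. That fit kept the thymocyte-like cells of week 3. Without the ta-non-activated library of week 3, Ccr4 was at -1.71, and Ccr8 and Cxcr4 turned to 0.002647 and 0.794. Without the week 2 or the week 3 ta-activated library, 0 and 3 genes were called. The cause was not tested. Of 103 values of single receptors in these fits, 92 kept their direction and side of the threshold, 8 became calls and 3 reversed. In fits that called 0 genes no receptor could become a call, so there the tally shows direction only. Sizes could move within it. Ccr2 was at 1.97 in the reported fit and at 0.36 in cells with both gate genes, while Ccr1 was at 4.28 and 4.43. Of the 9 receptors, 5 had their highest level in the naïve library, 3 when cells with both gate genes were used, and 5 under the other 6 choices of cells or scale. The same count did not always hold the same receptors. Cxcr4 was among the 5 with thymocyte-like cells kept, and Ccr9 took its place without them. For shares the number of receptors highest in the naïve library was 5 at 2000 UMIs, 4 at 1000 UMIs and 3 without thinning. Single values moved more than these counts show. Under the other choices, 125 receptor levels in gated cells fell outside the counting interval of the reported level and 154 stayed within it. For shares at the other depths, 73 fell outside and 17 stayed within. In thymocyte-like cells 5 levels fell outside and 22 stayed within. In thymocyte-like cells 1 receptor was higher than in the other gated cells, and 2 when cells were chosen by markers. Depth limits the receptors under 10 CPM, above all in the 589 gated week 3 ta-non-activated cells, where 3 UMIs are worth 1.67 CPM.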
